A study of Mus musculus with 5 samples.

Results

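The genes described here are 43 genes of lipid synthesis and storage, chosen by name as a set that covers the making of fatty acids, their packing into triglyceride droplets and the making of cholesterol. All 43 were present among the 24347 gene symbols of the tables, 23 in the fatty acid and droplet list and 20 in the cholesterol synthesis list. The series set Krt6a+ cells, labelled as keratin 6a positive precancerous stem cells, against WAP+ cells, which make the whey acidic milk protein. The tissue was in both cases an early, precancerous lesion of the mammary gland in MMTV-Wnt-1 transgenic mice, whose background mixes FVB, SJL and C57BL/6. In these mice the MMTV promoter drives Wnt-1 in the mammary epithelium, and both populations carry the transgene, so neither is a normal gland. Each library was amplified from a small pool of cells sorted by flow cytometry with an anti-TVA antibody, and the labels give neither the promoter behind TVA nor the age of the mice. Krt6a+ cells gave 2 libraries (replicates 2 and 3) and WAP+ cells 3 (replicates 1 to 3). Nothing in the labels says whether they came from separate animals, so p-values measure only the spread between these libraries, which may be technical.

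Fatty acids are built from acetyl-CoA, which ATP citrate lyase (Acly) supplies in the cytosol, acetyl-CoA carboxylase (Acaca) activates and fatty acid synthase (Fasn) extends. Desaturases and elongases then finish the chain, the acyltransferases join chains to glycerol, and the triglyceride is stored in a droplet coated by perilipins. In the milk-secreting alveolar cell the droplet leaves as a milk fat globule, wrapped in membrane that carries butyrophilin (Btn1a1) and xanthine oxidoreductase (Xdh). Cholesterol is built from the same acetyl-CoA through mevalonate, farnesyl diphosphate and squalene, and the transcription factors SREBP1 (Srebf1) and SREBP2 (Srebf2) drive the fatty acid and the sterol genes, mainly in that order. Cholesterol is also a building block of the barrier of stratified epithelia.

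Promoters are shown for 3 genes with different behaviour in these libraries: Hmgcs1, a sterol gene whose level was higher in Krt6a+ libraries, Fasn, a fatty acid gene whose level was lower, and Plin2, the droplet coat gene that passed the test. Each runs from 250 bases before to 50 bases after the RefSeq start site on the GRCm38.p6 build, 5′ to 3′ on the strand of the gene. These start sites are also those of the deposited transcripts. Capitals mark, on either strand, CCAAT (the box bound by NF-Y, a partner of SREBP), CACNCCAC (the core of the sterol regulatory element) and CACGTG (an E-box). Hmgcs1 lies at chr13:119690101-119690400 on the plus strand, Fasn at chr11:120824498-120824797 on the minus strand and Plin2 at chr4:86670010-86670309 on the minus strand.
Hmgcs1: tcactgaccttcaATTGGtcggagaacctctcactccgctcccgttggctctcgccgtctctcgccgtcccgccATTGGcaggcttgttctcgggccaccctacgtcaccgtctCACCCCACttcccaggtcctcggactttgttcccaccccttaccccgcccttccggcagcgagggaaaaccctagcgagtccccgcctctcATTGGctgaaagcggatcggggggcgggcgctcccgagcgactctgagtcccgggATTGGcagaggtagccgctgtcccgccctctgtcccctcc
Fasn: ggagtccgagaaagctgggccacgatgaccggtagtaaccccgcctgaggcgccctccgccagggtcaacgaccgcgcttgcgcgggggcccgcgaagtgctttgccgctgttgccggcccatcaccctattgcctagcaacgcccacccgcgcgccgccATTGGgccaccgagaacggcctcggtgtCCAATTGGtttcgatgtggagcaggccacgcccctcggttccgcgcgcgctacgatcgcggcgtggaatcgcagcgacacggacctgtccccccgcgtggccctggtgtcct
Plin2: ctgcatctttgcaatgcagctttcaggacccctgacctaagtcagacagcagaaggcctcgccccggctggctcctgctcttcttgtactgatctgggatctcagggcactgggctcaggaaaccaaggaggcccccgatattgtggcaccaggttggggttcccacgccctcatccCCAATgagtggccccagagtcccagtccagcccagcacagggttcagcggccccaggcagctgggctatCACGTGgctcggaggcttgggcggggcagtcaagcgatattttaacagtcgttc
The Hmgcs1 promoter held 4 CCAAT matches and 1 CACNCCAC match, the Fasn promoter 3 CCAAT matches, of which 2 overlap each other on opposite strands, and the Plin2 promoter 1 CCAAT and 1 CACGTG match. Promoters were found for 31 of the 43 members. CCAAT occurred in 15 of 19 promoters of cholesterol synthesis members (78.9%), 12 of 20 promoters of fatty acid and droplet members (60%) and 37.4% of all 32851 promoters of this length. CACNCCAC occurred in 3 of the 19 (15.8%), 1 of the 20 (5.0%) and 6.24% of all promoters, and CACGTG in 4 of the 19 (21.1%), 2 of the 20 (10%) and 7.15% of all. A match describes these letters and shows no binding.

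Levels are the deposited FPKM, which divide a transcript's fragments by its length and by the mapped total. The widths of the deposited 95% intervals, read as counting error only, corresponded to about 4160000 to 5850000 fragments per library. Krt6a itself had FPKM 1380 and 1130 in Krt6a+ libraries, against 168, 50 and 120 in WAP+ libraries, and Wap was listed at 0 in both Krt6a+ libraries, against 50.1, 126 and 13.9 in WAP+ libraries, so the named markers followed the labels and Krt6a was present in both populations. Gapdh was listed at 0 in 3 libraries and Eno1 in 5, and a listed 0 may therefore be an estimate that failed. Tests used limma on log2(scaled FPKM + 1) over 9682 genes, with Benjamini-Hochberg adjustment over all of them. A difference is Krt6a+ minus WAP+ on that scale, which understates the change of low genes, and errors of differences are moderated standard errors. Of all tested genes, 0.258% were called higher and 0.434% lower in Krt6a+ libraries at an adjusted p under 0.05. Members are also counted by whether all scaled values of one population lay above all of the other, which held for 17.4% of tested genes in each direction.

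Fatty acid and droplet genes were mostly at lower levels in Krt6a+ cells, and 1 of them, the droplet coat gene Plin2, passed the test. Of the 23 genes, 18 had a lower and 5 a higher mean level in Krt6a+ than in WAP+ libraries. Summed over the list, FPKM was 204 and 196 in Krt6a+ libraries, against 601, 551 and 363 in WAP+ libraries. By scaled mean over the WAP+ libraries, Plin2, Fabp5, Elovl1 and Scd1 weighed most in it, although in WAP+ library 1 Dgat1 (37.5) exceeded Scd1 (23.4). Of the 20 members that passed the filter on low values, 0 were called higher and 1 lower (limma, adjusted p under 0.05), against 0.692% of all tested genes called in either direction. Before adjustment, 0 members were higher and 8 lower at a p under 0.05, against 7.66% and 9.45% of all tested genes. The populations did not overlap for 10 members lower and 2 members higher in Krt6a+ libraries, against 34.8% of all tested genes in either direction. The fitted difference was negative for 16 and positive for 4 of the 20, against 50.2% and 49.8% of all tested genes. The median difference of the 20 was -1.08 on the log2 scale, against -0.01 over all tested genes. Lpin1 and Lpl, listed at 0 in both Krt6a+ libraries, have a fitted difference that depends on the pseudocount, and the median of the other 18 was -0.96. Of these 20, 5 passed the filter through WAP+ libraries alone (Acaca, Scd2, Lpin1, Btn1a1 and Lpl) and 0 through Krt6a+ libraries alone. Scd2, Lpin1 and Btn1a1 are in both the 8 and the 10 lower members counted above. These counts therefore describe the list and are not separate evidence of a lower level. Among the 12 members with FPKM 1 or more in every library, 10 were lower and 2 higher, with a median of -0.96, while the 5334 such genes of the whole table were lower in 2622 cases and higher in 2712, with a median of 0.01.

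**Figure D1:**
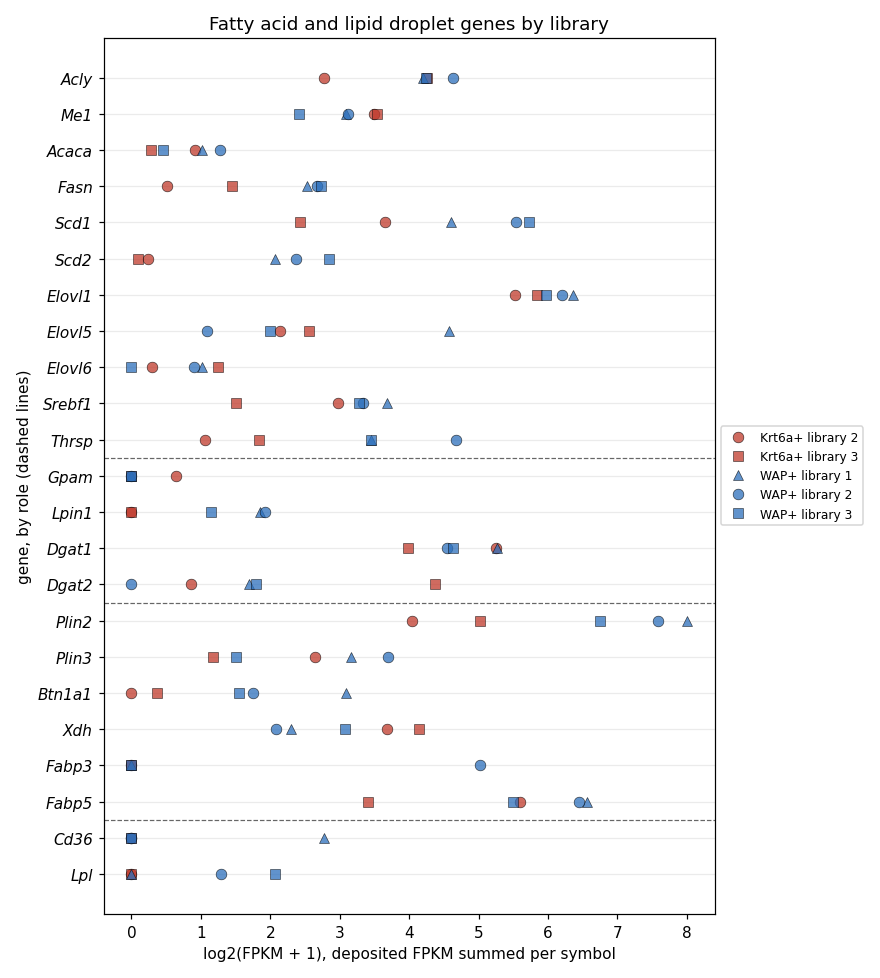
Level of each of the 23 fatty acid and droplet genes in each library, as log2(FPKM + 1) of the deposited FPKM, with 1 point per library, Krt6a+ libraries in red and WAP+ libraries in blue. Dashed lines separate synthesis, triglyceride assembly, droplet and fatty acid binding, and uptake genes, and the red points of Plin2, Scd1, Scd2, Fasn and Thrsp lie left of all blue points. Points at 0 lie on top of each other.

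Among the genes of synthesis, the desaturases, Fasn and Thrsp stood furthest apart, and none of the 11 passed the test. Their FPKM summed to 85.9 and 102 in Krt6a+ libraries, against 184, 197 and 170 in WAP+ libraries. Acly, the source of cytosolic acetyl-CoA, had FPKM 5.81 and 18.2 in Krt6a+ libraries, against 17.4, 23.9 and 18.0 in WAP+ libraries, so Krt6a+ library 3 lay among the WAP+ values (limma, log2 difference -0.97 ± 0.57, adjusted p = 0.435). Acaca, the rate-limiting carboxylase, was low throughout, with 0.88 and 0.22 in Krt6a+ libraries, against 1.02, 1.43 and 0.37 in WAP+ libraries. Fasn, which builds palmitate, had 0.43 and 1.74 in Krt6a+ libraries, against 4.77, 5.40 and 5.66 in WAP+ libraries. The intervals gave 32 and 116 Fasn fragments in Krt6a+ libraries, against 253, 342 and 301 in WAP+ libraries. All WAP+ values of Fasn lay above both Krt6a+ values, by a log2 difference of -1.75 ± 0.66 that did not pass (limma, adjusted p = 0.226).

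The desaturase Scd1, which makes oleate from stearate, had FPKM 11.6 and 4.38 in Krt6a+ libraries, against 23.4, 45.7 and 52.2 in WAP+ libraries. The scaled mean was 7.86 ± 5.62 in Krt6a+ libraries (SD, n = 2), against 43.5 ± 20.5 in WAP+ libraries (SD, n = 3), and the log2 difference of -2.36 ± 0.65 (5.13-fold lower) did not pass (limma, adjusted p = 0.127). Its paralog Scd2, also on chromosome 19, had 0.18 and 0.07 in Krt6a+ libraries, a level that rests on 5 and 1 fragments, against 3.18, 4.17 and 6.18 in WAP+ libraries (limma, log2 difference -2.31 ± 0.66, adjusted p = 0.134). Both desaturases were therefore apart between the populations, and how reads common to the paralogs were split is uncertain. Thrsp (Spot 14), a nuclear and cytosolic protein needed for full lipogenesis in the lactating mouse gland, had 1.08 and 2.56 in Krt6a+ libraries, against 9.97, 24.6 and 9.90 in WAP+ libraries. Thrsp was 5.72-fold lower in Krt6a+ libraries on the log2(FPKM + 1) scale, again without overlap and without passing (limma, log2 difference -2.52 ± 0.68, adjusted p = 0.124).

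Srebf1, the SREBP of fatty acid genes, had FPKM 6.88 and 1.85 in Krt6a+ libraries, against 11.8, 9.13 and 8.68 in WAP+ libraries, where its scaled level varied little (10.1 ± 0.237, SD, n = 3). The locus overlaps that of Rai1, and its reads were not told apart by strand. Its difference of -1.27 ± 0.66 did not pass (limma, adjusted p = 0.374). The elongases had no shared direction. Elovl1, which extends very long chains, was the most abundant, with 45.1 and 56.5 in Krt6a+ libraries, against 81.1, 72.8 and 61.6 in WAP+ libraries, apart by 1.53-fold (limma, adjusted p = 0.437). Elovl5, an elongase of polyunsaturated chains, had 3.42 and 4.89 in Krt6a+ libraries, against 22.9, 1.13 and 2.99 in WAP+ libraries, so WAP+ library 1 stood alone, and Elovl6, which extends palmitate, did not exceed 1.37 in any library. Me1, the malic enzyme that supplies NADPH, had a higher level in Krt6a+ libraries: it had 10.3 and 10.6 in Krt6a+ libraries, against 7.49, 7.69 and 4.31 in WAP+ libraries, with a small difference that did not pass (limma, 0.54 ± 0.55, adjusted p = 0.669).

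Triglyceride assembly genes showed no shared direction, and their FPKM summed to 38.4 and 34.5 in Krt6a+ libraries, against 42.4, 25.1 and 27.6 in WAP+ libraries. Gpam, the first acyltransferase of the pathway, was listed at 0.56 and 0 in Krt6a+ libraries and at 0 in all WAP+ libraries, and was not tested. Lpin1, a phosphatidate phosphatase, was listed at 0 in both Krt6a+ libraries, against 2.61, 2.79 and 1.22 in WAP+ libraries (limma, adjusted p = 0.197). Both deposited interval bounds of its 3 transcripts were also 0 in the Krt6a+ libraries, and the whole WAP+ signal sat on the transcript NM_172950. Its paralog Lpin2, named after its values were seen, had 37.0 and 7.19 in Krt6a+ libraries, against 1.89, 3.27 and 1.5 in WAP+ libraries. The differences of Lpin1 and Lpin2 had opposite signs, neither past the threshold (limma, Lpin2 log2 difference 2.39 ± 0.82, adjusted p = 0.192). That of Lpin1 rests on listed zeros, which may be failed estimates. Another paralog, Lpin3, had 3.56 and 0.19 in Krt6a+ libraries, against 0.1, 1 and 0.49 in WAP+ libraries, which overlap. Dgat1, which adds the last acyl chain, had 37.0 and 14.8 in Krt6a+ libraries, against 37.5, 22.3 and 23.9 in WAP+ libraries. Dgat2, an unrelated enzyme of the same reaction, had 0.81 and 19.7 in Krt6a+ libraries, against 2.23, 0 and 2.46 in WAP+ libraries, a spread set by Krt6a+ library 3. Neither Dgat gene separated the populations (limma, adjusted p = 0.826 and 0.564).

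Plin2, the perilipin that coats droplets in milk-secreting cells, fell in Krt6a+ libraries. It had FPKM 15.4 and 31.6 in Krt6a+ libraries, against 256, 192 and 107 in WAP+ libraries, from 191 and 334 fragments in Krt6a+ libraries, against 2313, 2314 and 1024 in WAP+ libraries. The lowest WAP+ value was thus more than 3 times the highest Krt6a+ value. The scaled mean was 21.9 ± 8.67 in Krt6a+ libraries (SD, n = 2), against 186 ± 55.7 in WAP+ libraries (SD, n = 3), and the log2 difference was -3.04 ± 0.45, or 8.22-fold lower (limma, adjusted p = 0.0448). The call was lost without Krt6a+ library 2 (adjusted p = 0.0587, a fit in which the lone Krt6a+ library is assumed to vary like the WAP+ libraries) and without WAP+ library 1, 2 or 3 (0.138, 0.202 and 0.141), with differences of -2.64 to -3.43 when each library was left out. It was also lost with no scaling factor (0.0522), a pseudocount of 0.1 (0.0619), no mean-variance trend (0.0788), a replicate block (0.0926) and no filter (0.158).

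The other droplet and globule genes were split. Plin3, a perilipin of small droplets, had FPKM 5.22 and 1.26 in Krt6a+ libraries, against 7.94, 12.0 and 1.84 in WAP+ libraries, which overlap (limma, adjusted p = 0.624). Of the globule membrane genes, Btn1a1 had 0 and 0.29 in Krt6a+ libraries, against 7.53, 2.35 and 1.93 in WAP+ libraries (limma, log2 difference -1.99 ± 0.67, adjusted p = 0.188). Xdh, whose protein binds butyrophilin on the globule and which also degrades purines in many cells, stood the other way round, with 11.8 and 16.6 in Krt6a+ libraries, against 3.91, 3.25 and 7.43 in WAP+ libraries (limma, log2 difference 1.31 ± 0.61, adjusted p = 0.325). These partners thus did not overlap between the populations in opposite directions, and neither passed. Fabp5, a fatty acid carrier of epithelia, had 47.6 and 9.61 in Krt6a+ libraries, against 93.3, 86.4 and 44.1 in WAP+ libraries, values that overlap as deposited and no longer do after scaling (limma, log2 difference -1.77 ± 0.70, adjusted p = 0.247). In Krt6a+ library 3 all of the Fabp5 signal was assigned to the transcript NM_001272097, while in the other libraries most of it was assigned to NM_010634. Fabp3, the carrier of muscle and of lactating gland, was listed at 0 in both Krt6a+ libraries, against 0, 31.6 and 0 in WAP+ libraries, and WAP+ library 2 was also the library with the highest Wap and the highest Thrsp.

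The uptake genes were barely detected. Cd36, a fatty acid translocase, was listed at 0 in both Krt6a+ libraries, against 5.81, 0 and 0 in WAP+ libraries, and Lpl, the lipase that frees fatty acids from lipoproteins, at 0 in both Krt6a+ libraries, against 0, 1.44 and 3.21 in WAP+ libraries. WAP+ library 1 also had the highest sums of adipocyte and endothelial markers. The 10 adipocyte markers summed to FPKM 0 and 1.01 in Krt6a+ libraries, against 2210, 70.8 and 24.0 in WAP+ libraries, and Fabp4 gave 2190 of the sum in WAP+ library 1. The adipocyte markers Adipoq, Plin1, Cidec, Lep, Cfd, Retn and Car3 were at 0 in all 5 libraries. The 6 capillary endothelial markers summed to 0.0902 and 7.51 in Krt6a+ libraries, against 148, 0.244 and 0.173 in WAP+ libraries, and all 6 were above 0 in WAP+ library 1. Of 8 macrophage markers, 5 were at 0 in every library, Adgre1 and Ptprc among them, and the sums were 14.5 and 20.2 in Krt6a+ libraries, against 10.1, 26.4 and 19.5 in WAP+ libraries, from Cd68, with C1qb in Krt6a+ libraries and Csf1r in WAP+ library 1. Without WAP+ library 1, 12 fatty acid and droplet members were lower in Krt6a+ libraries with no overlap, the same 10 among them plus Acly and Lpl, while the share of all tested genes was 23.0%, and the median difference was -1.42.

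Markers of the epithelial states differed between the same libraries. Wap and Krt6a name the populations, so their calls below are not separate evidence of a state. Among all tested genes, 0.258% were called higher and 0.434% lower, and 17.4% lay apart in each direction. The 5 luminal markers summed to FPKM 1390 and 3720 in Krt6a+ libraries, against 8970, 7850 and 7920 in WAP+ libraries, with 0 of 5 called and 5 of 5 apart and lower. The 5 milk-producing alveolar markers summed to 114 and 529 in Krt6a+ libraries, against 5190, 2670 and 953 in WAP+ libraries, with 2 of 5 called lower, Wap and Lalba. The 4 basal markers summed to 2930 and 3340 in Krt6a+ libraries, against 1290, 201 and 1100 in WAP+ libraries, with 1 called higher, Krt5, and the 5 squamous markers to 25900 and 11000 in Krt6a+ libraries, against 4120, 1480 and 1640 in WAP+ libraries, with 2 called higher, Krt6a and Krt6b. Of the 8 sebocyte markers, which would mark cells that make lipid in skin, Awat1, Dgat2l6 and Elovl3 were at 0 in all libraries. The sums were 257 and 146 in Krt6a+ libraries, against 50.8, 8.19 and 131 in WAP+ libraries. They came mostly from the keratin Krt79, except in WAP+ library 2, where Krt79 had 3.68 and Scd3 4.37. Scd3 had 0.25 and 0.2 in Krt6a+ libraries, against 2.62, 4.37 and 0.97 in WAP+ libraries (limma, adjusted p = 0.306). The part of cell makeup in the lipid differences was not tested. In pooled cells, fewer cells of a type and less RNA per cell cannot be told apart.

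**Figure D2:**
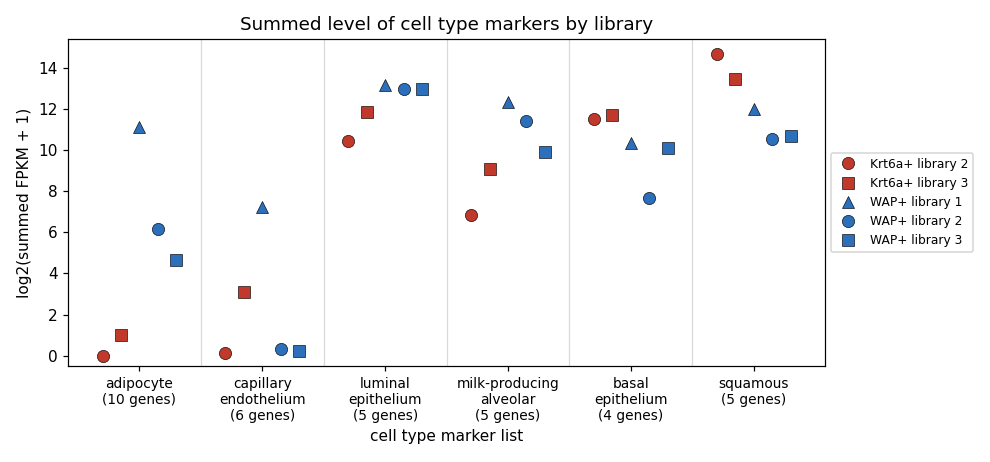
Summed FPKM of 6 marker lists in each library, as log2(sum + 1), with Krt6a+ libraries in red left of WAP+ libraries in blue. The adipocyte and endothelial sums are highest in WAP+ library 1 (2210 and 148), where Fabp4 alone gave 2190 of the adipocyte sum. The adipocyte markers Adipoq, Plin1, Cidec, Lep, Cfd, Retn and Car3 were at 0 in every library. The luminal and alveolar sums are lower, and the basal and squamous sums higher, in both Krt6a+ libraries than in each WAP+ library.

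Cholesterol synthesis genes had no common direction, and 1 of them, Fdft1, passed the test on listed zeros in both Krt6a+ libraries. Of the 20 genes, 9 had a lower and 11 a higher mean level in Krt6a+ than in WAP+ libraries. Their summed FPKM was 223 and 147 in Krt6a+ libraries, against 163, 137 and 102 in WAP+ libraries, which overlap. Of the 18 tested members 0 were called higher and 1 lower, the squalene synthase Fdft1 (limma), against 0.258% and 0.434% of all tested genes. The same counts stood at an unadjusted p under 0.05 (limma), against 7.66% and 9.45% of all tested genes. The populations did not overlap for 2 members higher, Hmgcs1 and Sqle, and 1 lower, Fdft1, against the 17.4% of all tested genes in each direction given above. The fitted difference was negative for 7 and positive for 11 of the 18, against 50.2% and 49.8% of all tested genes. The median difference was 0.52, against -0.01 over all tested genes. It was 0.63 without Fdft1 and Tm7sf2, which were listed at 0 in both Krt6a+ libraries and had passed the filter through WAP+ libraries alone. Among the 11 members with FPKM 1 or more in every library, 4 were lower and 7 higher, with a median of 0.43. Whether the cholesterol list differed from the fatty acid list was not tested.

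**Figure D3:**
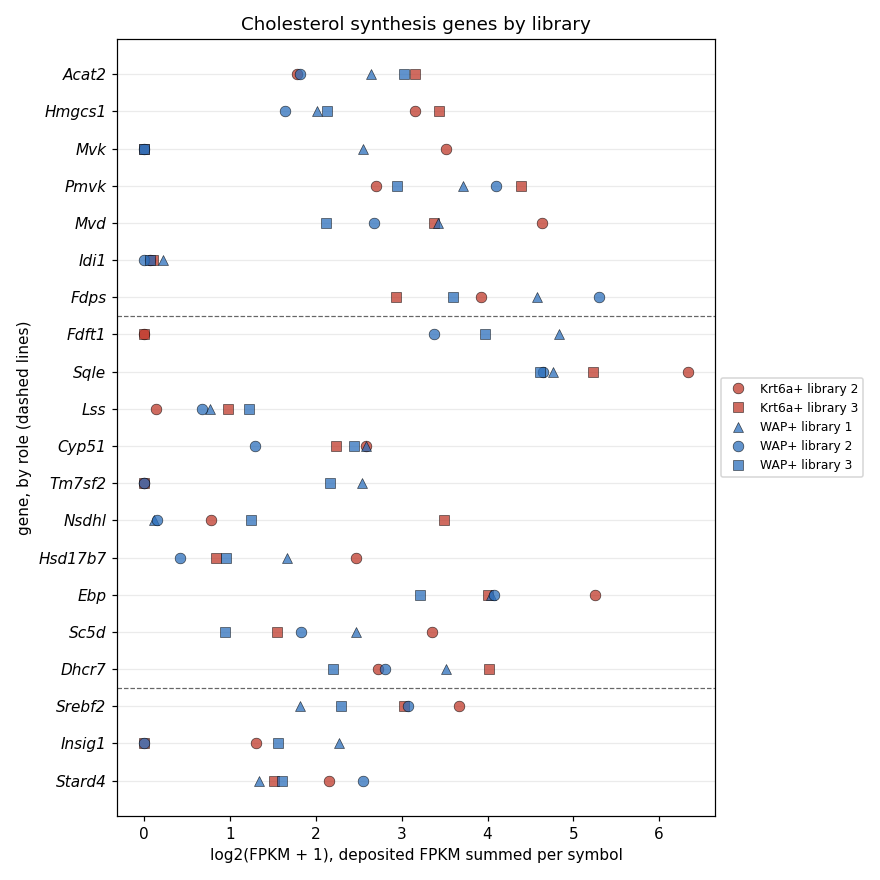
Level of each of the 20 cholesterol synthesis genes in each library, as log2(FPKM + 1) of the deposited FPKM, with Krt6a+ libraries in red and WAP+ libraries in blue. Dashed lines separate the mevalonate arm, the sterol arm and the regulatory and transfer genes, and the red points lie right of all blue points for Hmgcs1 and Sqle and at 0 for Fdft1.

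The mevalonate arm summed to FPKM 64.3 and 53.7 in Krt6a+ libraries, against 58.0, 64.4 and 31.8 in WAP+ libraries, which overlap. Within it Hmgcs1, the synthase that makes HMG-CoA, was the clearest. It had FPKM 7.91 and 9.78 in Krt6a+ libraries, against 3.05, 2.12 and 3.37 in WAP+ libraries, from 168 and 151 fragments in Krt6a+ libraries, against 46, 56 and 79 in WAP+ libraries. All of this signal sat on the transcript NM_001291439. The scaled mean was 8.37 ± 0.423 in Krt6a+ libraries (SD, n = 2), against 2.96 ± 0.798 in WAP+ libraries (SD, n = 3), so the replicates were close and the populations apart, but the difference of 1.26 ± 0.61 did not pass (limma, adjusted p = 0.337). Mvd, which decarboxylates mevalonate diphosphate, had 23.9 and 9.37 in Krt6a+ libraries, against 9.76, 5.41 and 3.35 in WAP+ libraries, with Krt6a+ library 3 just under WAP+ library 1. Fdps, which makes farnesyl diphosphate, lay the other way, with 14.2 and 6.61 in Krt6a+ libraries, against 22.8, 38.3 and 11.1 in WAP+ libraries, which overlap (limma, Mvd 1.17 ± 0.66, Fdps -1.17 ± 0.65, adjusted p = 0.413 and 0.407). Mvk, the mevalonate kinase, was listed at 10.4 and 0 in Krt6a+ libraries, against 4.83, 0 and 0 in WAP+ libraries, with both interval bounds at 0 wherever the level was 0. The kinase Pmvk and the thiolase Acat2 had differences of -0.15 and -0.13, within the spread of either population, and the isomerase Idi1 was listed at 0.16 or less in every library and not tested.

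The sterol arm starts with Fdft1, which was listed at 0 in both Krt6a+ libraries, and Sqle, which was higher in them without passing the test. Over the whole arm FPKM summed to 142 and 84.7 in Krt6a+ libraries, against 96.9, 60.2 and 62.5 in WAP+ libraries, which overlap. Fdft1, which joins farnesyl diphosphate into squalene, was listed at 0 in both Krt6a+ libraries, with upper interval bounds of 0.0774 and 0.0957, against FPKM 27.6, 9.39 and 14.7 in WAP+ libraries, from 403, 206 and 279 fragments. The difference passed (limma, adjusted p = 0.0448), and no fold is given against a listed 0. Fdft1 had passed the filter through WAP+ libraries alone, and a listed 0 may be an estimate that failed. Its locus on chromosome 14 (63145151 to 63179578) overlaps that of Ctsb by 773 bases, and Ctsb, the lysosomal protease cathepsin B, had FPKM 92.1 and 80.1 in Krt6a+ libraries, against 85.1, 37.3 and 49.0 in WAP+ libraries. The kit does not mark strand, so reads in the overlap cannot be assigned to either gene by strand. The Fdft1 call was lost without Krt6a+ library 2 (adjusted p = 0.0573, under the same assumption for the lone Krt6a+ library), without WAP+ library 1, 2 or 3 (0.138, 0.202 and 0.174), with no scaling factor (0.0522), no mean-variance trend (0.0553), a pseudocount of 5 (0.0652), a replicate block (0.108) and no filter (0.164).

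Sqle, the squalene epoxidase that takes the next step, had FPKM 79.6 and 36.6 in Krt6a+ libraries, against 26.1, 24.0 and 23.5 in WAP+ libraries. The WAP+ libraries were tight and both Krt6a+ libraries lay above them, library 2 by far the most, but the difference of 1.00 ± 0.49 did not pass (limma, adjusted p = 0.353). Without Krt6a+ library 2 it was 0.35 and without Krt6a+ library 3 it was 1.65. Lss, which closes the ring to lanosterol, did not exceed 1.34 in any library and was not tested, and Cyp51, which removes a methyl group from lanosterol, had 5.0 and 3.72 in Krt6a+ libraries, against 4.98, 1.45 and 4.45 in WAP+ libraries. Tm7sf2, a sterol reductase of the next step, was listed at 0 in both Krt6a+ libraries, against 4.81, 0 and 3.49 in WAP+ libraries (limma, adjusted p = 0.386). Lbr, the lamin B receptor, which carries out the same reduction, had 13.0 and 14.9 in Krt6a+ libraries, against 3.93, 3.17 and 3.56 in WAP+ libraries, without overlap (limma, log2 difference 1.61 ± 0.56, adjusted p = 0.195). Nsdhl, a demethylation enzyme, had 0.71 and 10.3 in Krt6a+ libraries, against 0.08, 0.11 and 1.37 in WAP+ libraries, so its difference of 1.52 ± 0.88 came mostly from Krt6a+ library 3. The last enzymes, Hsd17b7, Ebp, Sc5d and Dhcr7, had differences of 0.61, 0.74, 0.65 and 0.43, and each overlapped between the populations (limma, adjusted p = 0.561 to 0.793).

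The sterol regulators did not separate the populations. Srebf2, the SREBP of sterol genes, had FPKM 11.7 and 7.15 in Krt6a+ libraries, against 2.51, 7.45 and 3.91 in WAP+ libraries, where only WAP+ library 2 reached the lower Krt6a+ value (limma, log2 difference 0.84 ± 0.69, adjusted p = 0.580). Insig1, which holds SREBP in the endoplasmic reticulum, was listed at 1.46 and 0 in Krt6a+ libraries, against 3.81, 0 and 1.94 in WAP+ libraries. Stard4, a cytosolic sterol carrier, had 3.45 and 1.85 in Krt6a+ libraries, against 1.53, 4.84 and 2.04 in WAP+ libraries. Both overlap, with adjusted p of 0.759 and 0.973 (limma).

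**Figure D4:**
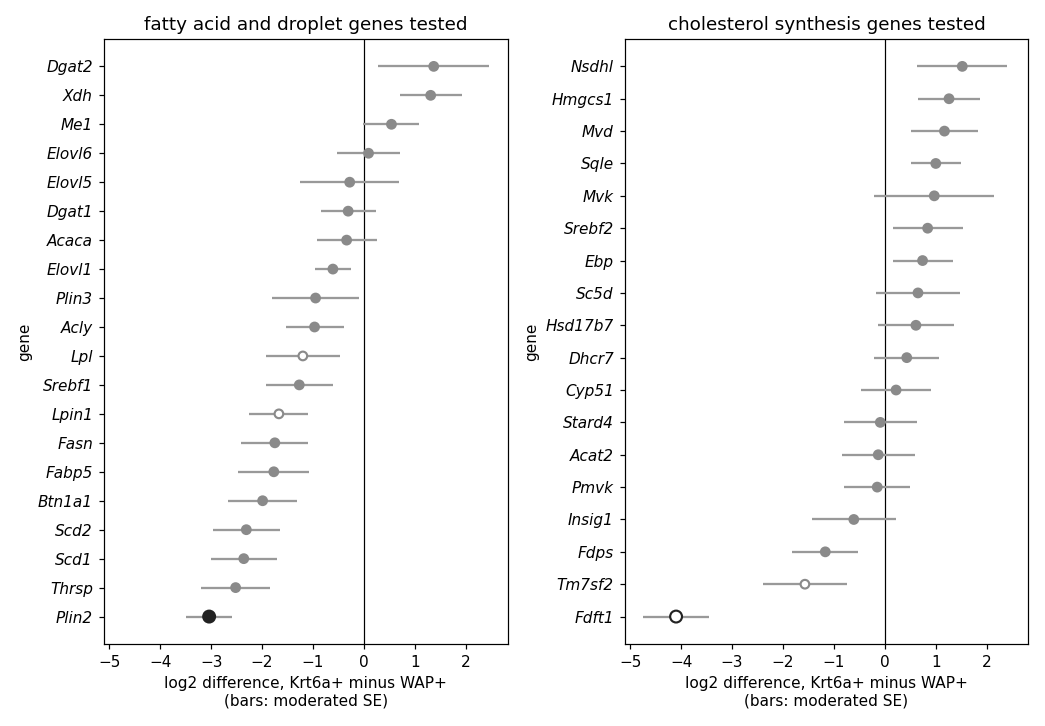
Difference on the log2(scaled FPKM + 1) scale, Krt6a+ minus WAP+, of the 20 fatty acid and droplet genes (left) and the 18 cholesterol synthesis genes (right) that were tested, with bars of 1 moderated standard error. Larger black symbols mark Plin2 and Fdft1, the genes past an adjusted p of 0.05, and open circles the genes listed at 0 in both Krt6a+ libraries, whose position depends on the pseudocount.

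The Krt6a+ libraries differed from each other more for the sterol genes than for the fatty acid genes. The median size of the log2 difference between Krt6a+ library 2 and library 3 was 1.25 over the 18 tested cholesterol synthesis members, 0.73 over the 20 tested fatty acid and droplet members and 0.85 over all tested genes. Between the highest and lowest WAP+ library the medians were 1.25, 0.94 and 1.13. Library 2 held the higher value for 11 of the 18 sterol members and library 3 for 5, and for the fatty acid members the counts were 8 and 10. Relative to the WAP+ mean of each gene, the median cholesterol member lay at 0.39 in Krt6a+ library 2 and at 0.00 in library 3, and the median fatty acid and droplet member at -0.63 in library 2 and -1.27 in library 3. The median of the fatty acid list was thus below the WAP+ libraries (-0.17 to 0.20) in both Krt6a+ libraries, and that of the cholesterol list was above the WAP+ libraries (-0.10 to 0.17) in library 2 only.

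Other genes of the same pathways gave 0 calls in either direction by limma at an adjusted p under 0.05. Their lists, like the members, were chosen with earlier results of these data known. At an unadjusted p under 0.05, 7.66% of all tested genes were higher and 9.45% lower. Of 7 other cholesterol synthesis genes tested, 2 had an unadjusted p under 0.05 and were higher, Lbr and Msmo1, and the median was 0.55. Msmo1, the sterol methyl oxidase that acts with Nsdhl, had FPKM 62.6 and 77.6 in Krt6a+ libraries, against 33.7, 24.2 and 35.5 in WAP+ libraries, without overlap (limma, log2 difference 1.04 ± 0.40, adjusted p = 0.240), while Ggps1, which takes the branch towards prenylation, lay below, with 0 and 1.00 in Krt6a+ libraries, against 1.51, 4.83 and 3.51 in WAP+ libraries. Of 13 tested genes of sterol uptake, transport and SREBP control, 2 were higher and 1 lower at an unadjusted p under 0.05. Scarb1, the receptor for high-density lipoprotein, had 0.09 and 0.82 in Krt6a+ libraries, against 24.8, 11.8 and 8.34 in WAP+ libraries (limma, log2 difference -3.45 ± 0.66, adjusted p = 0.0594). Abcg1, a sterol exporter, stood the other way, with 21.0 and 9.65 in Krt6a+ libraries, against 0.76, 0.36 and 2.57 in WAP+ libraries (limma, 2.80 ± 0.77, adjusted p = 0.125), as did Insig2, with 29.0 and 23.2 in Krt6a+ libraries, against 6.23, 10.4 and 10.8 in WAP+ libraries. Receptor and exporter of cholesterol were thus apart in opposite directions, neither past the threshold.

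Of 16 other fatty acid synthesis genes tested, 0 were higher and 1 lower at an unadjusted p under 0.05, with a median of -0.45. The shares of all tested genes were 7.66% higher and 9.45% lower. The lower gene was Fads3, of the fatty acid desaturase family, with FPKM 0.04 and 1.00 in Krt6a+ libraries, against 21.8, 10 and 15.7 in WAP+ libraries (limma, log2 difference -3.57 ± 0.64, adjusted p = 0.0542). Its relative Fads1, the delta-5 desaturase, also lay apart, with 0.08 and 3.99 in Krt6a+ libraries, against 7.35, 8.51 and 3.51 in WAP+ libraries, once scaled. Acsl3, an acyl-CoA synthetase, had 10.7 and 19.5 in Krt6a+ libraries, against 7.13, 7.18 and 3.77 in WAP+ libraries. Of 24 other triglyceride and droplet genes tested, 3 were higher and 3 lower at an unadjusted p under 0.05, against 7.66% and 9.45% of all tested genes. Mfge8, a milk fat globule protein, had 51.5 and 197 in Krt6a+ libraries, against 380, 395 and 264 in WAP+ libraries (limma, adjusted p = 0.130), and Lipe, the hormone-sensitive lipase and also 1 of the adipocyte markers above, 0 and 1.01 in Krt6a+ libraries, against 6.98, 5.0 and 3.72 in WAP+ libraries (adjusted p = 0.153). Slc27a3, of the fatty acid transport protein family, had 7.45 and 4.08 in Krt6a+ libraries, against a listed 0 in all WAP+ libraries (limma, adjusted p = 0.0851). Of 12 fatty acid oxidation genes tested, 0 were higher or lower at an unadjusted p under 0.05 and the median was 0.14. The 3 of these with the largest statistic, Slc25a20, Hadhb and Acadm, had adjusted p from 0.462 to 0.475 (limma).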

How the data were processed

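RNA from 5 small sorted pools was made into cDNA and amplified with SMART-Seq v4, tagmented with Nextera and sequenced as paired reads on a HiSeq, per the labels' protocols. TopHat, Cufflinks and mm10 are named in the submitters' processing notes, and the sources used here give neither versions nor read filters. The deposited tables hold 34535 RefSeq transcripts with FPKM values and the bounds of their 95% intervals, per the file headers, which the authors had already divided by length and depth. Mapped totals were not used here, so depth was estimated from the interval widths.

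FPKM was summed by symbol and divided by a factor per library (0.980 and 1.13 for Krt6a+, 1.14, 0.909 and 0.873 for WAP+), a median of ratios taken over the 5334 genes that reached FPKM 1 in each library. The 9682 genes at FPKM 1 or more in at least 2 libraries were tested on log2(scaled FPKM + 1) with limma 3.58.1 in R 4.3.3 (two-sided, with a mean-variance trend; degrees of freedom were 3 residual and 4.87 prior), at an adjusted p of 0.05. An SD is over libraries. Alternatives changed the pseudocount, filter, scaling, symbol summary, trend, block and libraries. The members and lists were chosen with earlier results of these data known. By rule, members past the threshold, and in each role group the 4 with the largest statistic, paralog pairs and rate-limiting enzymes have every value, and of each further list the 3 largest are named. Promoter sequences are from RefSeq, GRCm38.p6.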

Additional observations from a re-analysis of the deposited data

How the results depend on the processing

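The count of genes called over the whole table depended on most choices. Against 25 higher and 42 lower, a pseudocount of 0.1 gave 6 and 20, no filter 2 and 3, the stricter filter 71 and 92, no mean-variance trend 7 and 9, and a replicate block 15 and 19, while a pseudocount of 5 gave 41 higher, quantile normalization 39 higher and no scaling factor 27 lower. The highest transcript per symbol gave 32 and 43. Leaving out 1 library gave 2 to 44 higher and 3 to 103 lower. The median of the fatty acid and droplet list was -1.37 with a pseudocount of 0.1, -0.56 with a pseudocount of 5 and -0.66 to -1.42 with 1 library left out, against -1.08. The median of the cholesterol list ran from 0.19 to 0.48 with 1 library left out and was 0.29 with a pseudocount of 5 and 0.32 with no filter, against 0.52. Fatty acid and droplet members lower with no overlap numbered 10 to 13 with 1 library left out, beside 22.0% to 31.9% of all tested genes against 17.4% with all libraries, and cholesterol members higher with no overlap 2 with all libraries and 3 to 9, settings chosen after seeing the data. Without Krt6a+ library 3 the 9 stood beside 31.9% of all tested genes. The causes were not tested. The replicate numbers 2 and 3 occur in both populations, and same-numbered libraries deviated together little (r = 0.0495 and 0.000266 across genes). The deviations of the 2 Krt6a+ libraries from their mean are mirror images, so these r values cannot show whether the numbers pair the libraries. The numbers were not taken to pair them. Of 38 members tested, those whose difference changed sign were all uncalled: with 1 library left out Acat2 ran from -0.72 to 0.47, Pmvk from -0.90 to 0.60, Cyp51 from -0.19 to 0.48, Dhcr7 from -0.12 to 0.99, Sc5d from -0.32 to 1.62, Insig1 from -1.28 to 0.05, Stard4 from -0.47 to 0.30, Elovl5 from -1.01 to 0.62, Elovl6 from -0.24 to 0.52, Dgat1 from -1.03 to 0.42 and Dgat2 from -0.30 to 3.05. Elovl5 was 0.64 with a replicate block and Stard4 0.00 with no scaling factor. Intervals cover counting error only, and genes under about 1 FPKM, such as Scd2 in Krt6a+ libraries, rest on few fragments.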
